A study of Rattus norvegicus with 12 samples.

Results

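OC1 cells that had received siRNA 1928 were compared directly with OC1 cells that had received siRNA 1423, both of them siRNAs aimed at Bcl-2. The comparison takes 8 of the 12 libraries of the series, chosen by the siRNA code in their column names: replicates A to D of siRNA 1928 and replicates A to D of siRNA 1423. The remaining 4 libraries, from cells given a control siRNA, served here as a reference level. OC1 is labelled as a rat line of cochlear sensory epithelial cells, the cells that turn sound into nerve signals or support those that do. The labels call the genotype of the 8 libraries a Bcl-2 knockdown and that of the controls wild type, and all 12 were transfected with a lipid reagent. They describe the reagent as siRNA in the protocol and as a plasmid in the treatment tag. The line is a single one, the sources used here give no time between transfection and harvest, and no label says that the lettered replicates were separate cultures, so p-values measure only the spread between these libraries. HEI-OC1, a widely used auditory line, comes from mouse. The labels do not say whether OC1 is that line, and reads were counted against rat genes.

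Bcl-2 is a protein of the outer mitochondrial and endoplasmic reticulum membranes that holds back the pro-apoptotic members of its family, binds Beclin 1 of the autophagy machinery and dampens calcium release. An siRNA guide strand loaded into an Argonaute protein directs the cutting of fully matching mRNAs. The same strand can also lower other mRNAs that match only its seed, the bases near its 5′ end, in the way of a microRNA, so siRNAs of different sequence against 1 target can share the target and differ in the rest. The question put by this comparison is where cells given the 2 reagents differ, which holds both the depth of knockdown and effects particular to 1 reagent. These cannot be told apart here. The deposited values name genes by Ensembl ID alone, 0 of 23978 IDs could be matched to the reference table at hand, and the level of Bcl2 was not analysed. Neither siRNA sequence is among the sources used here, so none is printed.

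Cells given the 2 siRNAs differed in many genes by small amounts. Of 12731 genes tested, 5645 differed at an adjusted p under 0.05 (edgeR's quasi-likelihood test with Benjamini-Hochberg adjustment), which is 44.3%. Those higher with siRNA 1928 numbered 2714 (21.3% of tested genes) and those lower 2931 (23.0%). A difference of at least 1.5-fold was called in 712 genes (5.59%) and one of at least 2-fold in 167 (1.31%). The median absolute log2 difference of the called genes was 0.26. In 5083 genes (39.9%) the 4 libraries of one siRNA all lay above the 4 of the other.

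The precision of the libraries set an upper limit for most other genes. The 95% confidence interval of the log2 difference lay wholly inside 1.2-fold in either direction for 5605 genes, and inside 1.5-fold for 10197 (80.1% of those tested). Among the 7086 genes that were not called, 4172 (58.9%) were bounded within 1.2-fold and 5853 (82.6%) within 1.5-fold. The other 1233 uncalled genes could differ by more than 1.5-fold without being detected at this depth. Of the 5645 called genes, 1433 (25.4%) had an interval inside 1.2-fold, so a call alone did not mark a large difference.

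Expressed as the share of all counts in tested genes that would have to move from some genes to others to turn one library into another, libraries of the same siRNA differed by 1.81 to 2.63% with siRNA 1423 (6 pairs) and by 1.72 to 2.61% with siRNA 1928 (6 pairs). The 16 pairs of 1 library from each siRNA differed by 5.57 to 6.25%. The distance between the siRNAs was therefore larger than every distance within an siRNA. For reference, control libraries lay 3.63 to 4.67% from those of siRNA 1423 and 5.90 to 6.61% from those of siRNA 1928. By this measure siRNA 1928 lay about as far from siRNA 1423 as from the control.

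The direction of the difference depended on abundance. Genes were ordered by their mean CPM (counts per 1000000 of a library, after scaling by trimmed means of M values, TMM) over the 8 siRNA libraries and cut into 4 equal groups. In the scarcest group, up to 10.1 CPM, 566 of 784 called genes were higher with siRNA 1928 (72.2%). The share was 51.1% of 1373 in the second group, 46.0% of 1643 in the third and 37.5% of 1845 in the most abundant group, which began at 78.3 CPM. The median standard error fell from 0.184 to 0.0350 on the log2 scale between the scarcest and the most abundant group, and the median absolute log2 difference of called genes from 0.58 to 0.18. Larger differences were divided in the same way. At 10 CPM or more, 226 genes were at least 1.5-fold lower with siRNA 1928 and 99 at least 1.5-fold higher, so that 69.5% were lower. At under 10 CPM, 77 were lower and 310 higher. The balance at 10 CPM or more rests on the scaling: with library size alone it was 156 lower and 159 higher, and the share of higher genes among all calls went from 48.1% to 66.4%. That scaling moved the median log2 difference of all tested genes from 0.0036 to 0.066.

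**Figure D1:**
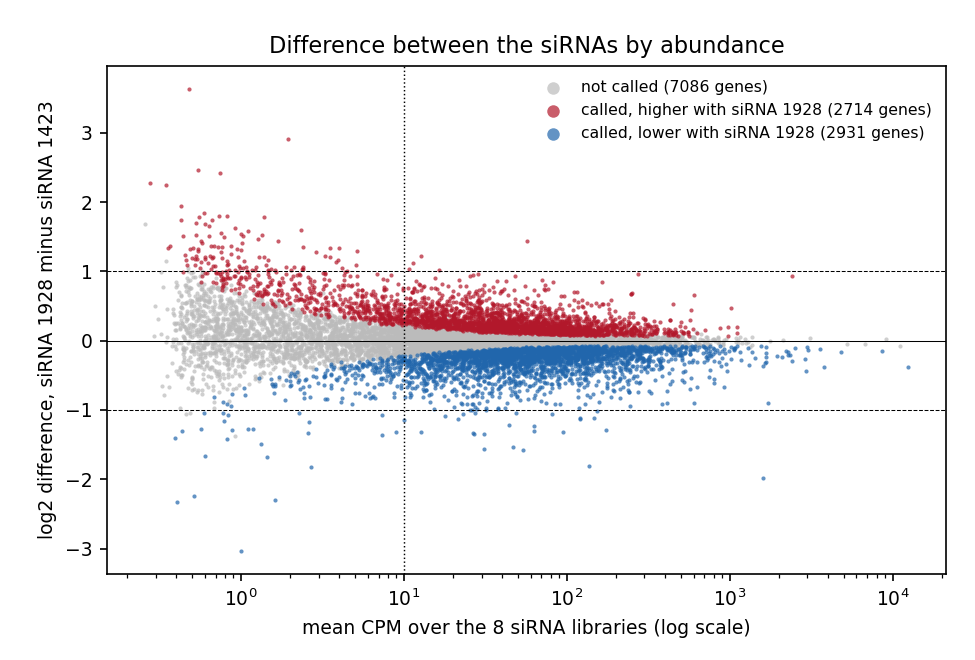
Each point is 1 of the 12731 tested genes, with its mean CPM over the 8 siRNA libraries on a log axis and its log2 difference (siRNA 1928 minus siRNA 1423) on the vertical axis; dashed lines mark 2-fold and the dotted line 10 CPM. Genes called at least 2-fold higher with siRNA 1928 are mostly scarce (110 of 115 under 10 CPM). Of the 52 called at least 2-fold lower, 27 stand at 10 CPM or more.

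The extremes of the distribution were scarce genes. A difference of at least 4-fold was called in 6 genes higher and 4 lower with siRNA 1928, with log2 differences of up to 3.63 and down to -3.04. All 10 averaged under 5 CPM. Libraries of the siRNAs overlapped in 3 of the 6 and in 1 of the 4. Among called genes of at least 5 CPM, no log2 difference lay beyond 1.43 or -1.98. At 100 CPM or more, 58 genes were at least 1.5-fold lower with siRNA 1928 and 11 at least 1.5-fold higher.

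The control libraries show which siRNA departed from the control level. Their values did not enter the difference between the siRNAs, although all 3 groups share the filter, the scaling and the estimate of spread. The genes below were chosen by the same siRNA values that are set against control. That choice by itself tends to put the siRNAs on opposite sides of control, most of all in scarce genes. Of the 226 genes of 10 CPM or more that were at least 1.5-fold lower with siRNA 1928, the control level was nearer to that of siRNA 1423 in 210 (92.9%). Their median log2 difference from control was 0.02 with siRNA 1423 (quartiles -0.07 and 0.11) and -0.71 with siRNA 1928 (quartiles -0.89 and -0.60). Of the 99 genes that were at least 1.5-fold higher, the control level was nearer to siRNA 1423 in 62 (62.6%) and nearer to siRNA 1928 in 37. Their median log2 difference from control was -0.25 with siRNA 1423 (quartiles -0.47 and -0.08) and 0.45 with siRNA 1928 (quartiles 0.25 and 0.64). In the second set the medians of the 2 siRNAs thus lay on opposite sides of control, which choosing genes by their difference favours. In the first set only the median of siRNA 1928 lay away from control. Over all called genes of any size, the control level was nearer to siRNA 1423 in 74.8% of those lower and 70.6% of those higher with siRNA 1928. The gap between 92.9% and 62.6% was not tested, since genes are not replicates. The share over all tested genes, called or not, was not computed. By counts moved, siRNA 1928 lay farther from control (5.90 to 6.61%) than siRNA 1423 did (3.63 to 4.67%). That by itself favours a control level nearer to siRNA 1423. With library size alone the shares were 93.6% and 67.3%. At 2-fold and 10 CPM or more, the control level was nearer to siRNA 1423 in 26 of 27 genes lower with siRNA 1928 and in 2 of 5 higher. Under 10 CPM, where most of the larger differences were upward, it was nearer to siRNA 1423 in 220 of the 310 genes at least 1.5-fold higher (71.0%) and in 60 of the 77 lower (77.9%). The median log2 difference from control of those 310 genes was -0.28 with siRNA 1423 and 0.66 with siRNA 1928.

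**Figure D2:**
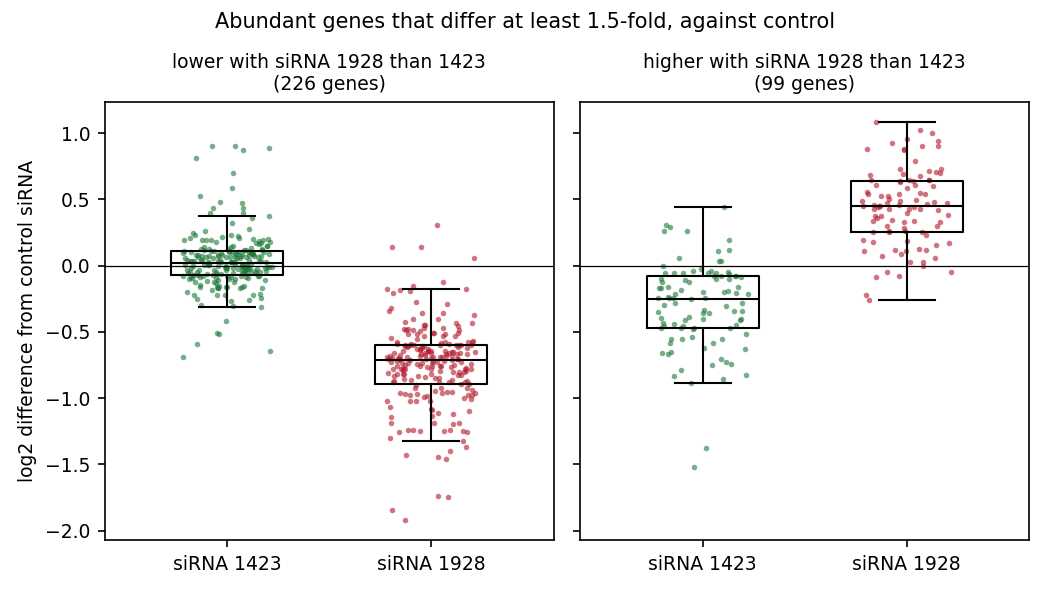
Log2 differences from control siRNA are plotted for the 226 genes (left) and 99 genes (right) of 10 CPM or more that differ at least 1.5-fold between the siRNAs, with siRNA 1423 in green and siRNA 1928 in red; boxes give the median and quartiles, whiskers reach 1.5 times the box. On the left siRNA 1423 sits around 0 (median 0.02) and siRNA 1928 at -0.71, and on the right they sit at -0.25 and 0.45.

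The tests against control, which share their control libraries, divide the same genes by call. Background shares of called genes were 22.8% for siRNA 1423 and 45.2% for siRNA 1928 over all tested genes. Of all 2931 genes lower with siRNA 1928 than with siRNA 1423, 1572 were called only with siRNA 1928 against control, as lower (53.6%), and 385 only with siRNA 1423, as higher (13.1%). Of all 2714 higher genes, 1444 (53.2%) were called only with siRNA 1928 and 397 (14.6%) only with siRNA 1423. Of the 303 genes at least 1.5-fold lower with siRNA 1928 at any abundance, 196 were lower than control with siRNA 1928 and not called with siRNA 1423. In a further 43 the calls were opposite, with siRNA 1423 above control and siRNA 1928 below it, while 32 were lower with both, 15 were higher with siRNA 1423 and not called with siRNA 1928, and 16 were called with neither. The remaining 1 was higher with both. Of the 409 genes at least 1.5-fold higher, 218 were called only with siRNA 1928 (higher), 45 only with siRNA 1423 (lower) and 50 with both in those opposite directions. Neither test called 88 of them, 6 were higher with both and 2 lower with both.

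The ends of the list are shown by 4 genes, which have the lowest 2 and the highest 2 differences among the 4401 genes that were called, averaged at least 5 CPM and had no overlap between the siRNAs. The lowest difference was that of ENSRNOG00000022619. Its level was 2368.4, 2461, 2673 and 2703 CPM in replicates A to D of siRNA 1423, and 627, 633, 652 and 678 CPM in those of siRNA 1928, against 2273, 2339, 2582 and 2607 CPM in the controls. All 4 libraries of siRNA 1928 were low. Those of siRNA 1423 overlapped with the controls, though each lay above the control of the same letter, a pairing that the fit leaves out. The log2 difference between the siRNAs was -1.98 (SE 0.0458, adjusted p = 8.39e-19). Against control it was -1.92 with siRNA 1928 (SE 0.0458, adjusted p = 7.65e-19) and 0.06 with siRNA 1423 (95% interval -0.03 to 0.15, adjusted p = 0.373). It alone held 0.252% of all counts with siRNA 1423 and 0.0665% with siRNA 1928. Its counts were not whole in any of the 12 libraries, as happens where reads are divided between genes or transcripts that match them equally well, so its level is uncertain to that extent. Values that were not whole were common, in 88.0% of tested genes. Among the genes that differed at least 2-fold they stood in 56.9% (95 of 167), with the directions unlike. The share was 84.6% (44 of 52) in those lower with siRNA 1928, as this gene was. It was 44.3% (51 of 115) in those higher with siRNA 1928, whose median level was 0.84 CPM.

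The next lowest was ENSRNOG00000052219, with counts that were not whole in 7 of the 12 libraries. It measured 209.8, 218, 215 and 214 CPM in replicates A to D of siRNA 1423 and 58.3, 66.3, 60.1 and 59.5 CPM in those of siRNA 1928. Control libraries ranged from 209 to 226 CPM, a range that holds every library of siRNA 1423 and none of siRNA 1928. The log2 difference between the siRNAs was -1.81 (SE 0.0382, adjusted p = 3.24e-19). Against control it was -1.84 with siRNA 1928 (adjusted p = 1.08e-19) and -0.03 with siRNA 1423 (95% interval -0.10 to 0.04, adjusted p = 0.599).

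In the 2 genes with the highest differences, siRNA 1423 was the one called lower than control. ENSRNOG00000019018 measured 31.7, 34.6, 28.5 and 29.4 CPM in replicates A to D of siRNA 1423 and 83.6, 86.5, 82.4 and 82.4 CPM in those of siRNA 1928. Control libraries ranged from 85.2 to 91.8 CPM, so that siRNA 1423 was low in all 4 libraries and siRNA 1928 stood near the controls. The counts of this gene were not whole in 3 of the 12 libraries. The log2 difference between the siRNAs was 1.43 (SE 0.0485, adjusted p = 6.97e-16). Against control it was -1.52 with siRNA 1423 (SE 0.0483, adjusted p = 2.07e-15) and -0.09 with siRNA 1928 (95% interval -0.18 to 0.0029, adjusted p = 0.108).

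ENSRNOG00000016543, a scarce gene with whole counts throughout, was at 3.18, 2.27, 3.50 and 2.91 CPM in replicates A to D of siRNA 1423 and at 6.42, 7.55, 7.87 and 7.69 CPM in those of siRNA 1928. The controls lay between 5.92 and 7.51 CPM and overlapped only with siRNA 1928. Its log2 difference between the siRNAs was 1.30 (SE 0.132, adjusted p = 4.56e-08). Against control it was -1.15 with siRNA 1423 (adjusted p = 1.73e-06) and 0.15 with siRNA 1928 (95% interval -0.09 to 0.39, adjusted p = 0.293). In each of these 4 genes, which were chosen as extremes of the same siRNA values, one siRNA was called lower than control and the other was not called.

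**Figure D3:**
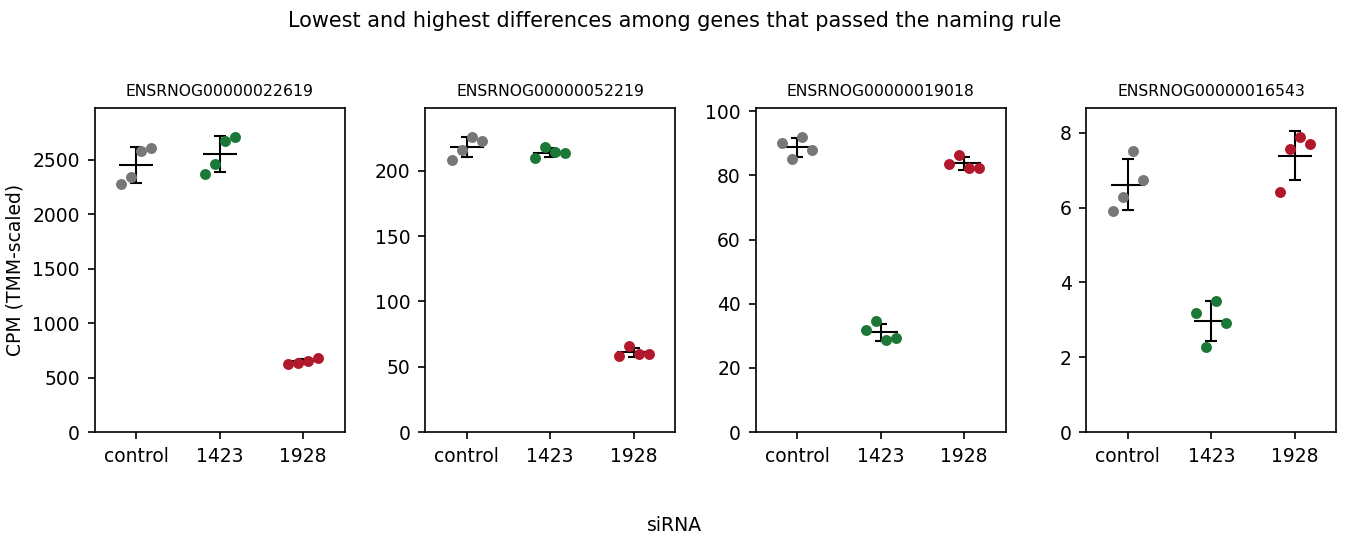
TMM-scaled CPM of 4 genes in each of the 12 libraries, by siRNA, on axes that start at 0; bars give the mean and SD of 4 libraries. ENSRNOG00000022619 and ENSRNOG00000052219 are low only with siRNA 1928 (means of 648 and 61.0 CPM), and ENSRNOG00000019018 and ENSRNOG00000016543 only with siRNA 1423 (means of 31.1 and 2.97 CPM).

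The wider ends of the same list followed the direction of these genes in part. The 12 lowest differences ran from -1.98 to -1.31 on the log2 scale. All 12 were called lower than control with siRNA 1928, and 2 were also lower and 2 higher with siRNA 1423. The 12 highest ran from 0.95 to 1.43. Of these, 9 were called lower and 1 higher than control with siRNA 1423, 8 were called higher than control with siRNA 1928, and 1 was lower with siRNA 1928. Choosing genes by the same siRNA values favours such calls by itself. Over all tested genes, 22.8% were called against control with siRNA 1423 and 45.2% with siRNA 1928.

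Scarce transcripts as a whole took a larger share of the libraries of siRNA 1928. Tested genes that averaged under 10 CPM held 1.197 ± 0.0231% of the counts with siRNA 1928, 1.09 ± 0.0190% with siRNA 1423 and 1.12 ± 0.0201% in the controls (SD, n = 4 each). The lowest library of siRNA 1928, at 1.17%, was above the highest of siRNA 1423, at 1.11% (two-sided exact permutation p = 0.0286, the smallest that 4 against 4 libraries can give; adjusted p = 0.0429 over 6 measures). Library totals overlapped, at 15671546 to 22726532 expected counts with siRNA 1928 and 16871581 to 22017957 with siRNA 1423 (exact permutation p = 0.743, adjusted p = 0.743). With every library brought by calculation to the smallest total, 15367 ± 56.8 genes (SD, n = 4) would have a count with siRNA 1928. The number for siRNA 1423 was 15043 ± 58.4, and no library of one group reached the other (exact permutation p = 0.0286; 0.0429 after adjustment). Without that step the numbers were 15567 ± 181 and 15208 ± 111, and their ranges overlapped (exact permutation p = 0.0571, adjusted p = 0.0686). Controls at equal depth lay between, at 15200 ± 124, and overlapped with both siRNAs. The scaling factors moved with these measures, at 1.03 ± 0.0047 for siRNA 1928 and 0.984 ± 0.0045 for siRNA 1423 (exact permutation p = 0.0286, adjusted p = 0.0429), as did the share of counts in the 10 most abundant genes of each library, at 6.69 ± 0.0396% and 7.10 ± 0.0368% (the same p). The control share, 6.69 ± 0.0873%, was that of siRNA 1928, while the control scaling factor, 0.988 ± 0.0043, was near that of siRNA 1423. The part of these measures in the excess of scarce genes higher with siRNA 1928 was not tested.

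**Figure D4:**
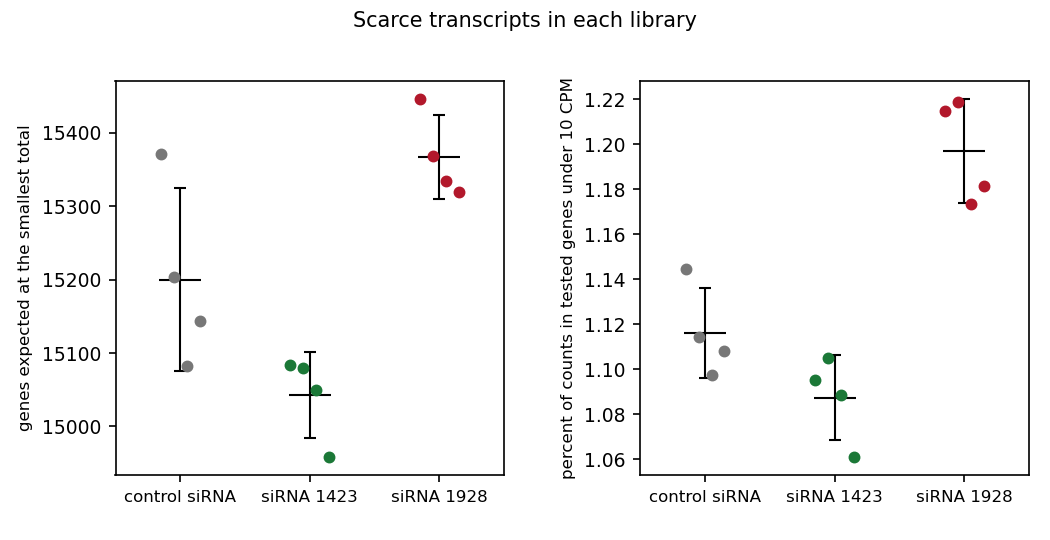
Each point is 1 library and the bars give the mean and SD of 4 libraries; the left panel shows genes expected to have a count at the smallest library total and the right panel the percent of counts in tested genes averaging under 10 CPM, on axes that do not start at 0. In both panels the 4 libraries of siRNA 1928 (15319 to 15446 genes, 1.17 to 1.22%) lie above the 4 of siRNA 1423 (14958 to 15083 genes, 1.06 to 1.11%).

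The difference between the siRNAs was alike in separate libraries. Replicates A and B and replicates C and D share no library, and 12649 genes were tested in both pairs. Of 4140 genes called with A and B alone, 4053 had the same sign with C and D (97.9%) and 3220 were also called there in the same direction. These were 77.8% of the calls of A and B and 68.0% of the 4735 calls of C and D, and 3 genes were called in opposite directions. Over all genes tested in both, 80.1% had the same sign. Genes called with A and B had a median absolute log2 difference of 0.30 there, and a median of 0.27 in the same direction with C and D. Of 184 genes called at 2-fold or more with A and B, 72 (39.1%) were also called at 2-fold or more in the same direction with C and D, a share that choosing genes by a limit in A and B lowers by itself. A test of whether the difference itself changed between the pairs of replicates called 1 gene of 12731 by edgeR and 1 by limma voom, with 712 (5.59%) at an unadjusted p under 0.05. That test was chosen after seeing the data, and with few libraries per pair it cannot show that the difference was the same. The spread between libraries was similar in both groups, with a median SD of log2 CPM of 0.0613 with siRNA 1423 and 0.0604 with siRNA 1928 over the 9555 genes of 10 CPM or more.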

How the data were processed

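Strand-specific libraries of poly(A) RNA were sequenced, per the labels' protocols. The authors deposited expected counts (estimated read counts that need not be whole) per Ensembl gene ID for 12 libraries. The unit was read from the values, of which 71.3% were whole to within 1e-06. Named in the submitters' processing notes are the build mRatBN7.2, DESeq2 1.24.0, fastp 0.21.0 and bcl2fastq 2.20. Which aligner, counting program and strand setting were used is not given in the sources used here. Division of reads that match several genes was not measured. A reference table of assembly GRCr8 pairs no Ensembl ID with a symbol, so 34 gene lists, cell type markers and Bcl2 could not be assigned.

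Expected counts were rounded. Genes were kept with edgeR's filterByExpr (minimum count 10, minimum total 15), scaled by trimmed means of M values (TMM) and fitted with 1 mean per group over all 12 libraries (edgeR 4.0.16, limma 3.58.1, R 4.3.3). Genes were called at an adjusted p under 0.05 over the 12731 tested. Standard errors came from the F statistic. The fit was also run on simulated independent libraries with 2-fold changes. That run held no variation shared between libraries and no smaller differences, so it does not check those. Exact permutation tests used scipy 1.17.1, and figures matplotlib 3.10.9. Genes named passed a mean of 5 CPM and no overlap between the siRNAs, and the lowest and highest 2 differences are given. The limits of 10 CPM and 1.5-fold, the lists and the comparison were chosen with earlier results of these data known. Alternatives were other scalings and filters, DESeq2 1.42.0, limma voom, the 8 siRNA libraries alone, a replicate block, pairs of letters and each siRNA library left out.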

Additional observations from a re-analysis of the deposited data

Results flagged for a closer look

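The number of genes with any count in replicate C of siRNA 1423, 15374, lay far above the other libraries of its group, which ranged from 15150 to 15156. No library of siRNA 1423 held more counts (22017957), and at the smallest total its number, 15050, lay within the range of the others. In all, 20 groups of 4 values were searched this way, and chance picks out about 1 in 20.

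The difference between the siRNAs depended on the letters in 1 gene, which averaged 68.6 CPM. The difference in replicates A and B exceeded that in C and D by 0.81 on the log2 scale (edgeR adjusted p = 0.0144; this test was chosen after seeing the data). With siRNA 1423 it measured 55.6 and 45.8 CPM in A and B and 79.7 and 87.4 CPM in C and D. With siRNA 1928 it lay between 64.9 and 78.4 CPM in all 4. Over all libraries its log2 difference was 0.05 (adjusted p = 0.766).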

How the results depend on the processing

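The count of 5645 differing genes stayed within 1.5 times its value under the 18 alternatives run. It was 6062 with library size alone (66.4% higher with siRNA 1928, against 48.1%), and only 4752 of these were among the 5645. DESeq2 called 5172 (5119 of them among the 5645) and limma voom 5637 (5570 of them). Without 1 siRNA library the count was 5068 to 5329 (4928 to 5134 of them among the 5645). It was 4150 with replicates A and B alone (3891 of them) and 4743 with C and D alone (4360 of them). The replicate block gave 6017 genes. The main fit did not take the letters as pairs, since the labels name no block. In their deviations from the group means, libraries of the same letter correlated at 0.03 to 0.11 between the siRNAs. Letters B and C of siRNA 1423 correlated best with their own letter, as did letters A, B and D of siRNA 1928. Correlations within A and B or within C and D were all positive, at 0.03 to 0.16. Those across these pairs of letters ran from -0.14 to 0.01. Libraries thus shared some variation by these pairs of letters. Within a pair, different letters correlated at 0.03 to 0.16, about as much as the same letter. The main fit leaves this variation out. With library size alone, the genes of 10 CPM or more at least 1.5-fold higher with siRNA 1928 numbered 159, against 99. The 4 genes given by ID kept direction and call under the 18 alternatives, with log2 differences of -2.01 to -1.92, -1.85 to -1.75, 1.36 to 1.51 and 1.197 to 1.40 in the order given in the text. Genes under 10 CPM are limited by depth, with a median standard error of 0.184 on the log2 scale in the scarcest of 4 equal groups.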

Other observations

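Among genes too scarce to be tested, 20 had 0 counts in all 4 libraries of siRNA 1423 and at least 1 in all 4 of siRNA 1928, with no count above 9. The opposite held for 5 genes, with no count above 4. No fold is given for them.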
